A study of Homo sapiens with 6 samples.

Results

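The cytosolic ribosomal protein genes were followed in T24 cells, an established line from a human bladder carcinoma, after knockdown of TRIM28, a SUMO E3 ligase and co-repressor of transcription. A gene was taken as a member where its row carried a name made of RPL or RPS and a number, with or without an A, X or L and a final digit, or was RPLP0, RPLP1, RPLP2 or RPSA, and lay on a primary chromosome. This gave 84 of the 78932 gene rows, 52 of the large and 32 of the small subunit, on 21 chromosomes with 12 of them on chromosome 19. No measured value entered the rule. The control cultures (siNC) were given a negative control siRNA and the knockdown cultures (siTRIM28) an siRNA against TRIM28, with 3 poly(A) RNA libraries in each group, all labelled as biological replicates of 1 batch. All 6 cultures were of 1 cell line in RPMI-1640 medium and were transfected with the same reagent. The identity of the TRIM28 siRNA used for them and the length of treatment are not given in the sources used here.

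Ribosomal proteins coat and stabilise the ribosomal RNA, and the cell makes them in nearly equal amounts because each ribosome holds a single copy of almost every kind. Most of their mRNAs begin with a C followed by a run of pyrimidines, the terminal oligopyrimidine (TOP) tract, through which the mTORC1 kinase and the RNA-binding protein LARP1 set their translation and stability. Surplus RPL5 and RPL11, held with the 5S ribosomal RNA, bind the ubiquitin ligase MDM2 when ribosome assembly fails.

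Total counts per library lay between 11712623 and 14018052. TRIM28 had 1419, 1393 and 1382 counts in siNC and 130, 96 and 109 in siTRIM28, a log2 fold change of −3.54 (SE 0.0722, adjusted p = 1.03e-10). Fold changes throughout are siTRIM28 against siNC on the log2 scale from edgeR's quasi-likelihood test, and a gene is called at a Benjamini-Hochberg adjusted p under 0.05 over all 18474 genes tested. Levels are given as CPM, the count of a gene scaled to the size of its library after TMM scaling, which sets each library against the bulk of its own genes. Because whole cultures were measured, fewer cells of a kind and less RNA per cell cannot be told apart. Of the genes listed for the identity of T24, the keratins KRT8 and KRT18 and the mesenchymal filament gene VIM were well above the count filter, KRT7 was low, and KRT19 and EPCAM were under it. VIM (0.33, adjusted p = 2.56e-05), KRT7 (0.56, adjusted p = 0.0126) and KRT8 (0.14, adjusted p = 0.0356) were higher after knockdown, the last not past the threshold without siTRIM28 replicate 1. Of 7 markers of urothelial differentiation only UPK1A passed the filter, and it was higher at 1.94 (adjusted p = 0.000549) with at most 4.13 CPM in any library. Of 9 markers of other cell types only CD68 and COL1A1 passed it, and CD3E was at 0 in every library. COL1A1 was higher at 1.78 (adjusted p = 0.000222) with at most 3.79 CPM, CD68 did not pass the test at 0.01, and the part of these changes in the members' values was not tested.

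The replicates of a group were not equally close. Over all genes the chi-square of the counts per degree of freedom was 1.08 for siNC replicates 1 and 2 and 1.22 for siTRIM28 replicates 2 and 3, where sampling noise alone gives a value near 1. It was 4.17 to 4.22 for the pairs with siNC replicate 3 and 5.65 to 6.25 for the pairs with siTRIM28 replicate 1. Over the members alone the chi-square per gene was 1.89 for siNC replicates 1 and 2 and 3.55 for siTRIM28 replicates 2 and 3. For the members it was 21.9 to 23.8 with siNC replicate 3 and 117 to 125 with siTRIM28 replicate 1. At an equal relative difference this measure is larger for genes with higher counts. Group counts below that change without siTRIM28 replicate 1 are given both ways. That fit leaves siTRIM28 with replicates 2 and 3 only, which over all genes differ by little more than sampling noise. Its adjusted p-values therefore take the spread of this group from a close pair, and its calls are to be read with that limit.

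The sequences that start these mRNAs are shown for the 4 lowest and the 4 highest members by fold change among those with a TOP start in the RefSeq promoter table (build GRCh38.p14), because the TOP tract is what most of the family has in common. Each run reads from 5′ to 3′ and holds 20 bases before the annotated start and 10 bases from it, with the uninterrupted pyrimidine run from the start in capitals. The first 4 are members with lower levels after knockdown and the last 4 are members that did not pass the test.
RPL10, chrX:154398357-154398386, plus strand: atgcgcaggcggaggagcgcCTCTTTCCCT
RPS23, chr5:82278345-82278374, minus strand: ctccttcctgcggtgcttctCTCTTTCgct
RPSA, chr3:39406700-39406729, plus strand: cgtcatttcctgccgcctgtCTTTTCCgtg
RPL7A, chr9:133348198-133348227, plus strand: attacccacaattccctttcCTTTCTCTCT
RPL38, chr17:74203658-74203687, plus strand: ccggaaacggaagtctcgttCTTTTTCgtc
RPL36, chr19:5690275-5690304, plus strand: gagttccgcgcggcgccagcCCTTCCgcca
RPL39, chrX:119791621-119791650, minus strand: gctcgttcttccgccagcttCCCTCCTCTT
RPS21, chr20:62387083-62387112, plus strand: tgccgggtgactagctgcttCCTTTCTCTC
A run of at least 6 pyrimidines opens each of the 8. Because these were picked for a TOP start, the run cannot compare members that fell with those that did not. Of 67 members with a window in the table, 47 (70.1%) had a TOP start, here a C at the annotated start followed by at least 4 bases that are each C or T, against 5.14% of 27305 genes with a window.

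The fitted fold change of most ribosomal protein genes was slightly negative after TRIM28 knockdown, and none was called higher. Of the 81 members tested, 44 fell, 37 did not pass the test and 0 rose, and the fitted fold change was negative in 73 and positive in 8. The count that fell depended on the processing. It was 37, 40 and 47 with upper-quartile, total-count and RLE scaling, 38 with DESeq2 and 47 with limma-voom, and further settings are given below. The count that rose was also 0 at an unadjusted p under 0.05, and at an adjusted p under 0.05 with DESeq2 and with limma-voom. Over all genes tested 20.5% were lower and 21.3% higher. Among the 1821 genes with a mean of at least 100 CPM, a comparison chosen after the values were seen, 32.3% were lower and 28.6% higher, and 42 of the 73 members at that level were lower. The median fold change of the members was −0.16, with the middle of the distribution from −0.23 to −0.09, against 0.02 over all genes tested and −0.01 over the highly counted genes. The median member thus fell by 10.5% in level, and 2 members, RPL10 and RPL23, passed the second threshold of 0.58 in size. In 48 of the 81 every siTRIM28 library lay below every siNC library, a pattern found in 25.7% of all genes tested. It was found in 671 of the 1821 highly counted genes and in 45 of the 73 members at that level. For each of those 48 the exact two-sided permutation test gave p = 0.1, the smallest value that 3 against 3 libraries allow.

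**Figure D1:**
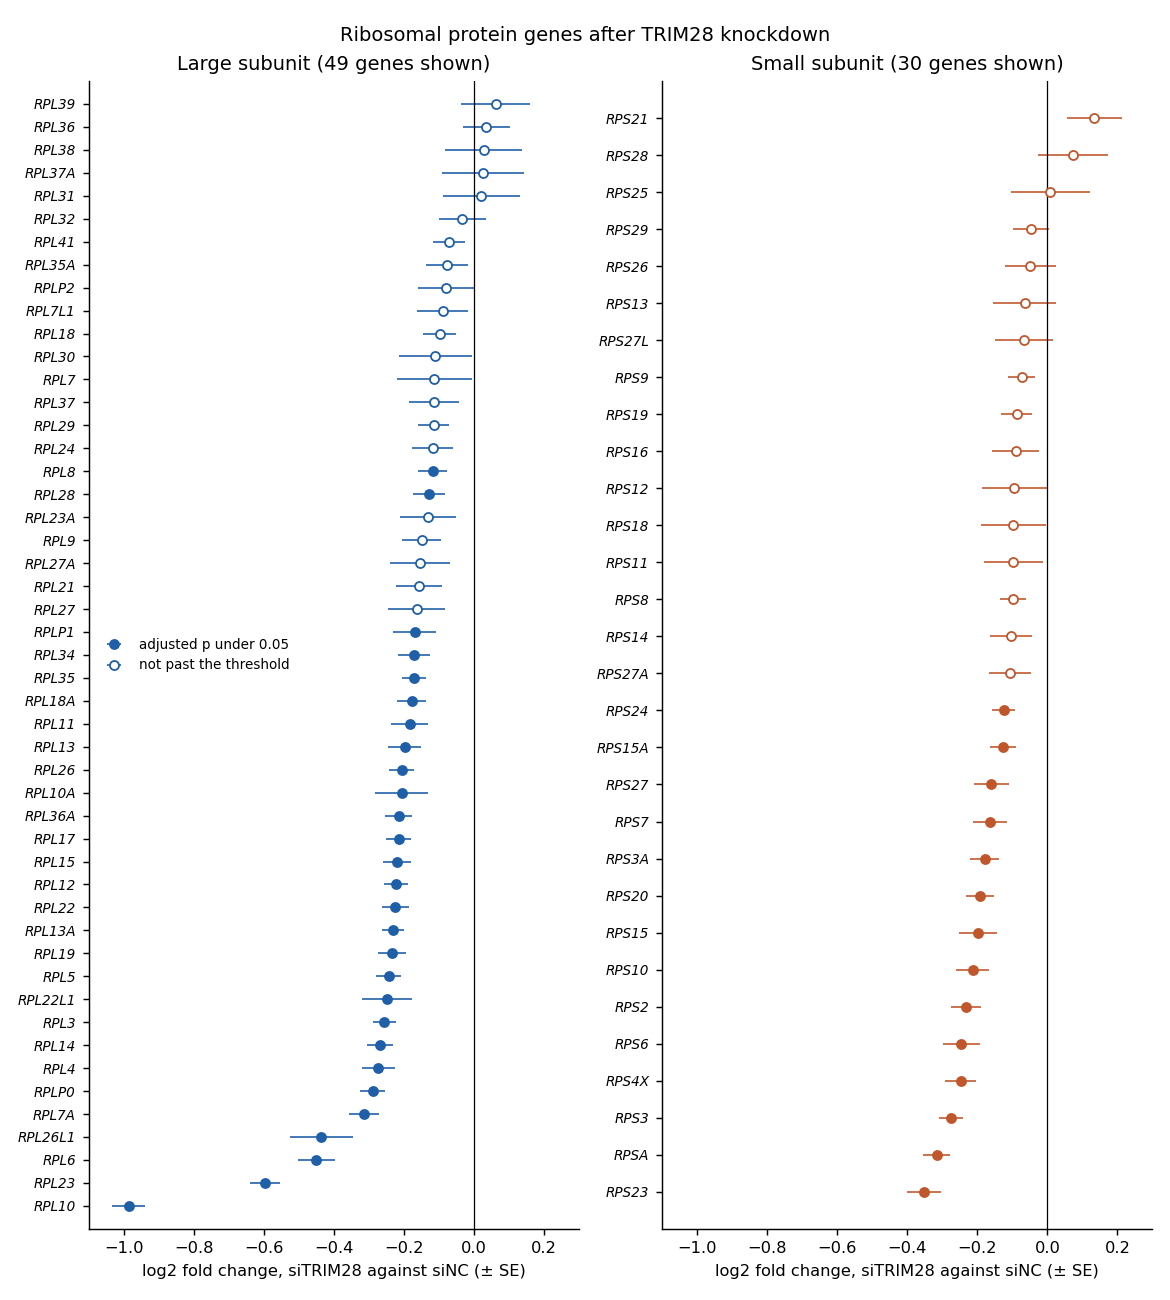
Fitted log2 fold change (x axis, siTRIM28 against siNC, bars ± SE) of each of the 49 large subunit genes and of 30 of the 32 small subunit genes tested, ordered by value; filled points passed an adjusted p of 0.05. RPL10 at −0.99 and RPL23 at −0.60 stand to the left of the rest, and the 8 genes right of 0 are all open points.

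Genes of both subunits fell. Of the large subunit genes 28 of 49 fell, with a median of −0.17, and of the small subunit genes 16 of 32 fell, with a median of −0.12. Without siTRIM28 replicate 1 the counts were 48 of 49 and 28 of 32, with medians of −0.22 and −0.19. Members made up 6.98%, 6.93% and 6.76% of all counts in siNC replicates 1 to 3 and 6.34%, 5.89% and 6.002% in siTRIM28 replicates 1 to 3. The groups did not overlap, and the means were 6.89% ± 0.113 and 6.08% ± 0.231 (SD, n = 3 each). Large subunit genes went from 4.82% ± 0.0896 to 4.23% ± 0.174 of the counts and small subunit genes from 2.07% ± 0.0240 to 1.85% ± 0.0590.

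The gene with the largest fall was RPL10 (X:154389955-154409168), whose protein joins the large subunit late in its maturation near the site that binds the tRNAs. It stood at 207, 204 and 215 CPM in siNC and 99.5, 108 and 108 CPM in siTRIM28. All 3 knockdown libraries lay close together and far below the controls, and the level fell by 49.5% (log2 fold change −0.99, SE 0.0477, adjusted p = 4.00e-08). RPL23 (17:38847860-38868644), a protein of the face where the subunits meet, stood at 742, 756 and 784 CPM in siNC and 478, 520 and 511 CPM in siTRIM28. It fell by 33.9% (log2 fold change −0.60, SE 0.0418, adjusted p = 6.42e-07), again without overlap.

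RPL6, a large subunit protein, came next with 2006, 2049 and 2053 CPM in siNC against 1341, 1563 and 1569 CPM in siTRIM28 (log2 fold change −0.45, SE 0.0537, adjusted p = 4.22e-05). RPS23, which sits at the decoding centre of the small subunit, had 622, 619 and 629 CPM in siNC and 450, 509 and 505 CPM in siTRIM28 (log2 fold change −0.35, SE 0.0476, adjusted p = 0.000111). In these genes siTRIM28 replicate 1 was the lowest library. RPSA, also known as the precursor of the laminin receptor, moved by −0.32 (SE 0.0387, adjusted p = 5.21e-05). RPL7A moved by −0.31 (SE 0.0429, adjusted p = 0.000122). RPL26L1, a paralog of RPL26, completes the 8 lowest together with RPLP0 and is described with the paralogs. None of the 8 lowest overlapped between the groups.

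**Figure D2:**
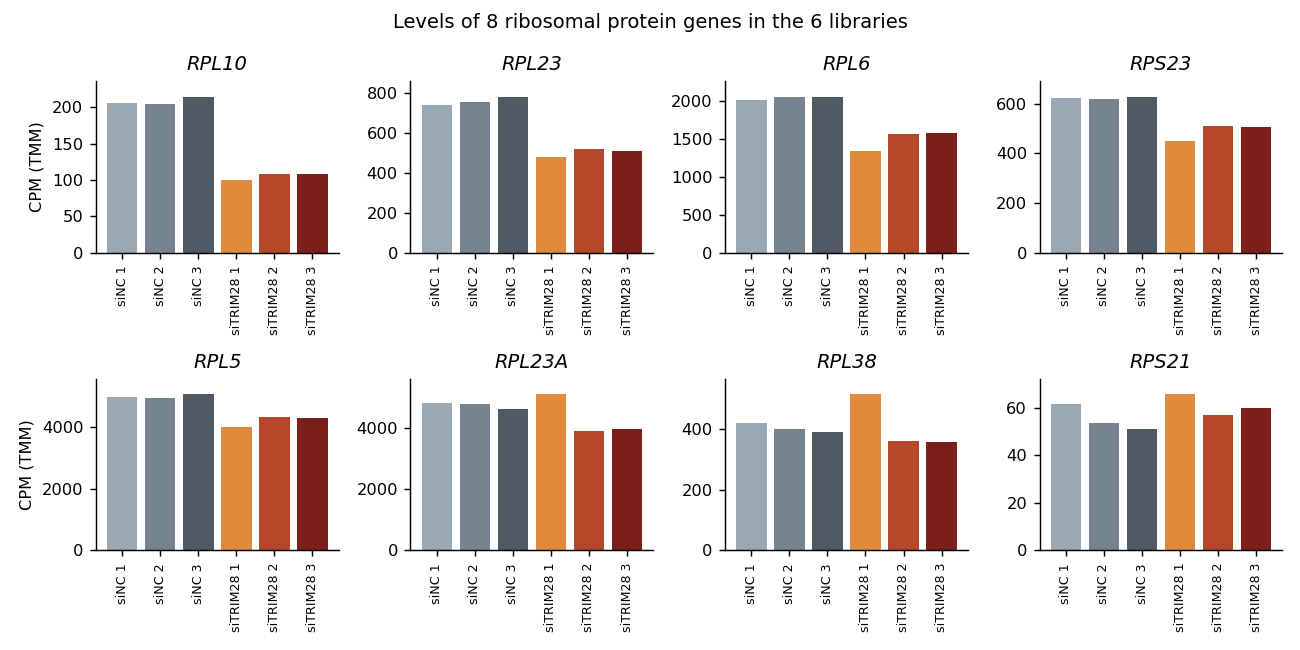
TMM-scaled CPM (y axis from 0, a scale per gene) in each of the 6 libraries (bars) for 8 ribosomal protein genes. The 4 genes of the upper row are lower in every siTRIM28 library than in any siNC library, whereas RPL23A, RPL38 and RPS21 have their highest value in siTRIM28 replicate 1.

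The genes at the other end of the order did not pass the test. The 8 highest were RPS21 (0.13), RPS28 (0.07), RPL39 (0.06), RPL36 (0.04), RPL38 (0.03), RPL37A (0.03), RPL31 (0.02) and RPS25 (0.01) with adjusted p from 0.198 to 0.959. RPL38, a large subunit protein known for axial patterning defects when it is lost in mice, stood at 419, 401 and 392 CPM in siNC and 514, 362 and 358 CPM in siTRIM28. RPS25, a small subunit protein used by viral internal ribosome entry sites, stood at 607, 601 and 570 CPM in siNC and 747, 505 and 536 CPM in siTRIM28. In both genes siTRIM28 replicate 1 was above every control library and the remaining siTRIM28 libraries were below every control library. Without siTRIM28 replicate 1 RPL38 was at −0.16 (adjusted p = 0.000377) and RPS25 at −0.19 (adjusted p = 0.000119), and RPL31, RPL37A and RPL39 were past the threshold as well, at −0.16, −0.18 and −0.10. RPS21 kept its sign, with 61.8, 53.9 and 51.3 CPM in siNC, 65.8, 57.1 and 60.2 CPM in siTRIM28, and 0.08 (adjusted p = 0.417) without that library.

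The split between siTRIM28 replicates, present over all genes, was seen in this family as well. Relative to each gene's siNC mean, the median member stood at −0.07, −0.22 and −0.21 on the log2 CPM scale in siTRIM28 replicates 1, 2 and 3. Replicates 2 and 3 were both below every siNC library in 77 of the 81 members, whereas replicate 1 was below every siNC library in 49 and above every one in 25. Replicate 1 was above the other siTRIM28 libraries in 59 members and below them in 20. These counts were made over the members only. Without the same shares over all genes tested, they do not show a trait particular to the family. Among the 37 members that did not pass the test, replicate 1 was the highest siTRIM28 library in 36. The median of replicate 1 minus the mean of replicates 2 and 3 was 0.29 in those 37 and 0.04 in the 44 that fell. The test itself used replicate 1, so these values follow in part from how the sets were made.

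**Figure D3:**
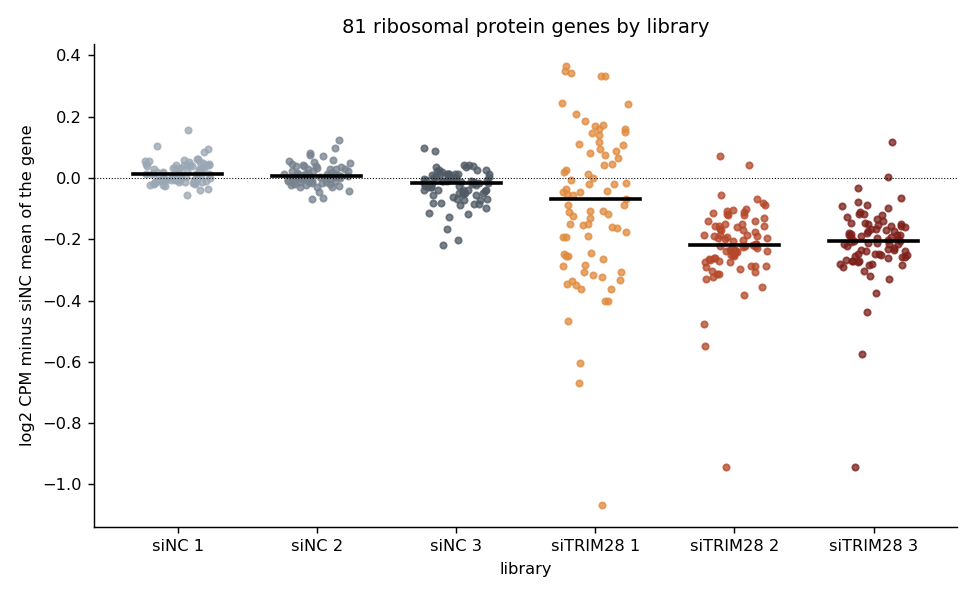
Log2 CPM of each of 81 ribosomal protein genes minus that gene's siNC mean (y axis), by library (x axis), with 1 point per gene and a black bar at the median. The medians are near 0 in siNC, −0.07 in siTRIM28 replicate 1, whose points spread from −1.07 to 0.37, and −0.22 and −0.21 in replicates 2 and 3.

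Without siTRIM28 replicate 1, a fit of 5 libraries, 76 of the 81 members fell, 0 rose, and the median was −0.21, while 23.1% of all 18078 genes tested were lower. Of the 1821 genes with a mean of at least 100 CPM, 731 were lower in this fit, against 71 of the 73 members at that level. Of the 37 members not called in all 6 libraries, 32 were then lower. The 5 that were not are RPS14, RPS29, RPL36, RPS28 and RPS21. With siNC replicate 3 also left out, a choice made after the values were seen, 75 fell, against 22.2% of all genes tested. When the close libraries (siNC replicates 1 and 2, siTRIM28 replicates 2 and 3) were summed into 1 sample each, 29 fell and the median was −0.12, while 16.1% of all genes tested were lower.

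Longer members were lower in the knockdown libraries, and the span from the shortest to the longest was widest in siTRIM28 replicate 1, a relation looked at after the values were seen. The coding length, taken from GENCODE v29 for all 81 members tested, had Pearson r = −0.47 and Spearman rho = −0.59 with the fold change across the 81 genes, and r = −0.35 with the fold change without siTRIM28 replicate 1. With the difference of a single library from the siNC mean r was −0.48, −0.40 and −0.29 for siTRIM28 replicates 1, 2 and 3. These points share their libraries and are a description. Across 12435 genes tested with a coding length r was 0.06, and across 1691 highly counted genes it was 0.16. In the 27 shortest members, of 75 to 399 nucleotides, 10 fell with a median of −0.08. In the 27 of middle length, of 405 to 564 nucleotides, 12 fell with a median of −0.15, and in the 27 longest, of 576 to 1281 nucleotides, 22 fell with a median of −0.23. The median difference of siTRIM28 replicate 1 from the siNC mean was 0.07 in the shortest, −0.05 in the middle and −0.25 in the longest members, that of replicate 2 was −0.16, −0.22 and −0.25, and that of replicate 3 was −0.17, −0.21 and −0.22. Without siTRIM28 replicate 1 the counts were 23, 26 and 27 of 27. In the highly counted genes the difference of siTRIM28 replicate 1 from replicates 2 and 3 also went with coding length (r = −0.31, n = 1691), and its part in the members' values was not tested.

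By role, the partners of the 5S ribosomal RNA both fell. RPL5 was among the most abundant members, with 4972, 4956 and 5074 CPM in siNC and 4015, 4346 and 4314 CPM in siTRIM28 (log2 fold change −0.24, SE 0.0362, adjusted p = 0.000227). RPL11 had 569, 574 and 563 CPM in siNC and 548, 482 and 471 CPM in siTRIM28 (log2 fold change −0.18, SE 0.0529, adjusted p = 0.0151). All knockdown values were below all control values in both genes, though replicate 1 of siTRIM28 lay close to the controls in RPL11. RPL11 was no longer past the threshold without siNC replicate 1 (adjusted p = 0.0546) or siNC replicate 2 (adjusted p = 0.0588).

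The P stalk, which recruits the translational GTPases, has RPLP0 and RPL12 at its base and RPLP1 and RPLP2 as its arms. RPLP0 stood at 962, 950 and 958 CPM in siNC and 765, 779 and 805 CPM in siTRIM28 and fell by 0.29 on the log2 scale (SE 0.0346, adjusted p = 4.29e-05). RPL12 moved by −0.22 (SE 0.0339, adjusted p = 0.000267) and RPLP1 by −0.17 (SE 0.0623, adjusted p = 0.0468). RPLP1 overlapped between the groups, and RPLP2 did not pass the test at −0.08 (SE 0.0814, adjusted p = 0.468). The 2 base proteins were lower in all 3 siTRIM28 libraries, while the 2 arm proteins were near or above the controls in replicate 1, with 998 CPM for RPLP1 and 761 CPM for RPLP2. Without that library RPLP1 was at −0.26 and RPLP2 at −0.21, and both passed the test. RPLP1 lost its call when any library other than siTRIM28 replicate 1 was left out, with adjusted p from 0.0666 to 0.147. Its call was also lost with DESeq2 (adjusted p = 0.0533) and, by edgeR, with upper-quartile (adjusted p = 0.0962) or total-count scaling (adjusted p = 0.0677).

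Of the 8 proteins that line the exit tunnel for the nascent chain or surround its mouth, 5 fell (RPL4, RPL17, RPL19, RPL26 and RPL35), and without siTRIM28 replicate 1 all 8. Of all 81 members 44 fell, and 76 without that library, while 20.5% and 23.1% of all genes tested were lower. RPL4, whose loop reaches into the tunnel, was at 3819, 3811 and 3963 CPM in siNC and 2928, 3315 and 3351 CPM in siTRIM28 (log2 fold change −0.27, SE 0.0480, adjusted p = 0.000746). RPL23A, the docking site of the signal recognition particle, was the member with the highest level per length, at 2116 ± 50.5 length-normalised units (RPKM, from TMM-scaled CPM and the gene length given with the counts; SD, n = 3) in siNC. It stood at 4799, 4774 and 4593 CPM in siNC and 5083, 3901 and 3953 CPM in siTRIM28, overlapped between the groups and did not pass the test (−0.13, SE 0.0805, adjusted p = 0.219), whereas without siTRIM28 replicate 1 it was at −0.26.

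In the head of the small subunit 6 of 14 members fell, RPS3, RPS10, RPS15 and RPS20 among them, with a median of −0.10 for the 14. The count was 12 and the median −0.19 without siTRIM28 replicate 1. Beside these stand 44 of all 81 members, and 76 without that library. In the fit of all libraries 20.5% of all genes tested and 32.3% of the highly counted genes were lower. RPS3, which lies at the entry of the mRNA, had 1021, 1010 and 1005 CPM in siNC and 854, 814 and 841 CPM in siTRIM28 (log2 fold change −0.28, SE 0.0343, adjusted p = 6.02e-05). RPS6, the substrate of the S6 kinases, lies outside the head and stood at 3230, 3193 and 3153 CPM in siNC and 2965, 2554 and 2560 CPM in siTRIM28 (log2 fold change −0.25, SE 0.0519, adjusted p = 0.00257). RPS27A, made as a fusion with ubiquitin, was at 371, 367 and 359 CPM in siNC and 378, 322 and 320 CPM in siTRIM28 and did not pass the test (−0.11, SE 0.0588, adjusted p = 0.172), but did without siTRIM28 replicate 1 (−0.19, adjusted p = 4.55e-05). Of the 11 members whose loss of a copy is known from Diamond-Blackfan anaemia, a failure of red cell production, 8 fell, with a median of −0.18. RPS19, RPS26 and RPL35A were the others, and without siTRIM28 replicate 1 they passed the test as well, so that 11 of 11 were lower. In that fit 76 of all 81 members were lower, so this count does not set the 11 apart.

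Levels per length in siNC ranged widely. The length is that of the whole annotated gene model, which was 9840 bases for RPS29 and 8825 for RPS27L against coding lengths of 168 and 252, so the order depends on the annotation as well as on the counts. The median over the 81 members tested was 139 RPKM, with the middle of the distribution from 63.2 to 359 RPKM. RPL23A, RPL5 (1356 ± 17.3 RPKM) and RPS6 (1184 ± 14.3 RPKM) were highest and in this order differed by more than their spread. Among the members tested the lowest were RPS28 (8.65 ± 0.850 RPKM), RPS29 (6.07 ± 0.0297 RPKM) and RPS27L (4.04 ± 0.0438 RPKM). Over all 84 members the lowest 3 were the paralogs RPL39L, RPL10L and RPL3L, at 0.261, 0.0958 and 0.0632 RPKM, and these are the 3 that did not pass the count filter.

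Vertebrates keep paralogs of some ribosomal proteins, several of them used in testis or muscle. RPL39L had 2, 6 and 3 counts in siNC and 4, 6 and 11 in siTRIM28. RPL10L had 2, 0 and 1 counts in siNC and 0, 0 and 1 in siTRIM28, and RPL3L had 0, 4 and 3 against 2, 0 and 1. These 3 genes were too low for a difference to be detectable at this depth. On the other side of the filter the nearest member was RPS28, with 270, 269 and 208 counts in siNC and 304, 228 and 201 in siTRIM28.

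Of the 4 paralogs tested, RPL26L1 and RPL22L1 fell. RPL26L1 was at 34.5, 35.2 and 27.7 CPM in siNC and 25.1, 23.2 and 23.8 CPM in siTRIM28 (log2 fold change −0.44, SE 0.0905, adjusted p = 0.00232). RPL22L1 was at 33.9, 32.9 and 37.0 CPM in siNC and 27.1, 30.6 and 29.7 CPM in siTRIM28 (log2 fold change −0.25, SE 0.0718, adjusted p = 0.0155). RPL7L1 at −0.09 (adjusted p = 0.352) and RPS27L at −0.07 (adjusted p = 0.560) did not pass the test. The parents of the 7 paralogs included RPL10, and 5 of them fell (RPL3, RPL10, RPL22, RPL26 and RPS27), while RPL7 and RPL39 did not pass the test. RPL22L1 lost its call without siNC replicate 3 (adjusted p = 0.0640), and RPS27 without siNC replicate 1 (adjusted p = 0.0861) or siNC replicate 2 (adjusted p = 0.0704). RPS27 was also not past the threshold with DESeq2 (adjusted p = 0.0586) or, by edgeR, with upper-quartile scaling (adjusted p = 0.0676). Without siTRIM28 replicate 1 RPL7 (−0.27), RPL7L1 (−0.19), RPS27L (−0.17) and RPL39 (−0.10) were called lower.

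Whether a paralog moved differently from its parent was tested on the log2 ratio of their CPM in each library. The difference in this ratio, siTRIM28 minus siNC, was −0.22 for RPL26L1 over RPL26 (from −5.81 ± 0.212 to −6.03 ± 0.0220, SD, n = 3 each, exact two-sided permutation p = 0.4). It was −0.02 for RPL22L1 over RPL22, 0.02 for RPL7L1 over RPL7 and 0.08 for RPS27L over RPS27 (exact permutation p = 1 for each). Adjusted over the 4 pairs every p was 1, and 3 against 3 libraries cannot go below 0.1. RPL26L1 in siNC replicate 3, at 27.7 CPM, lay near the knockdown libraries.

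Members that fell were found with and without a TOP start. Of the 47 members with a TOP start 24 fell, with a median of −0.15, and of the 19 tested members without one at the annotated start 11 fell, with a median of −0.20. The counts were 44 of 47 and 17 of 19 without siTRIM28 replicate 1. Other short motifs were searched on both strands of the whole window, from 250 bases before to 50 bases after the start. CCGGAAG, the core of sites for ETS factors, was in 24 of 67 members (35.8%) against 12.2% of all genes with a window, and CACGTG, the E-box of MYC and its relatives, was in 5 of 67 (7.46%) against 8.77%. These matches are a description of the windows and not of binding.

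Ribosomal proteins that the name rule left out showed no common direction. FAU (−0.12, adjusted p = 0.0955) and RACK1 (0.03, adjusted p = 0.761) did not pass the test, although FAU did without siTRIM28 replicate 1 (−0.18, adjusted p = 0.000130). RPL36AL, a close relative of RPL36A, rose from 451, 447 and 425 CPM in siNC to 528, 488 and 475 CPM in siTRIM28 (log2 fold change 0.17, SE 0.0463, adjusted p = 0.0105), a call lost without siNC replicate 3. Its relative RPL36A fell, from 966, 981 and 986 CPM to 876, 841 and 811 CPM (log2 fold change −0.22, SE 0.0375, adjusted p = 0.000711).

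The mRNAs of other genes with a TOP tract, most of them translation factors, were mostly lower as well. Of 16 such genes 13 fell and 0 rose, with a median of −0.24, and 14 fell without siTRIM28 replicate 1. Over all genes tested 20.5% were lower and 21.3% higher, and among the highly counted genes 32.3% and 28.6%. By edgeR 1 of the 16, GAS5 at 0.16, was higher at an unadjusted p under 0.05, and 0 of the 16 were higher at an adjusted p under 0.05 by DESeq2 or limma-voom. EIF3L, a subunit of the initiation factor that binds the small subunit, went from 169, 172 and 174 CPM to 96.7, 102 and 103 CPM (log2 fold change −0.77, SE 0.0440, adjusted p = 1.30e-07). EIF3H, another subunit of this factor, was at −0.41 (adjusted p = 3.66e-05), and HNRNPA1, an RNA-binding protein, at −0.36 (adjusted p = 8.15e-05). EEF1A1, which brings the tRNAs to the ribosome, was at −0.31 (SE 0.0288, adjusted p = 6.07e-06).

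Of 15 genes of mTORC1 and its control of TOP mRNAs, 3 fell and 1 rose, with a median of 0.00. These shares are not above the 20.5% and 21.3% of all genes tested, and the count that rose was 2 with RLE or total-count scaling or DESeq2 and 3 with upper-quartile scaling. TSC2, an inhibitor of the pathway, was at −0.82 (adjusted p = 7.04e-06), AKT1S1, a subunit that restrains the kinase, at −0.58 (adjusted p = 8.02e-05) and RPS6KB1, the kinase of RPS6, at −0.41 (adjusted p = 0.000517). RHEB, the activator of mTORC1, was at 0.37 (adjusted p = 0.000281). MTOR and LARP1 did not pass the test, at 0.00 each.

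Of 13 chaperones and importins that carry new ribosomal proteins to the nucleolus, 7 fell and 0 rose, with a median of −0.22, and 0 were higher at an unadjusted p under 0.05 by edgeR or at an adjusted p under 0.05 by DESeq2 and limma-voom. The count that fell was 9 without siTRIM28 replicate 1. Over all genes tested 20.5% were lower and 21.3% higher, and 23.1% were lower without that library. Among the highly counted genes 32.3% were lower and 28.6% higher. GRWD1, the chaperone of RPL3, had 54.5, 54.0 and 61.2 CPM in siNC and 15.1, 19.8 and 20.1 CPM in siTRIM28 (log2 fold change −1.63, SE 0.101, adjusted p = 2.42e-07). HEATR3, which takes RPL5 into the nucleus, was at −0.94 (adjusted p = 5.74e-05) and PDCD2, the chaperone of RPS2, at −0.32 (adjusted p = 0.000536). Of the clients of GRWD1, HEATR3 and PDCD2, RPL3 was at −0.26, RPL5 at −0.24 and RPS2 at −0.23, close to the lower quartile of all members tested (−0.23). In the same list 6 genes did not pass the test, BCCIP at −0.04 (adjusted p = 0.807) and AAMP at −0.08 (adjusted p = 0.376) among them. The clients of those 6 are not set beside them here. The pairs shown were thus picked by the fall of the listed gene and do not stand for the whole list. Whether the genes of the list moved with their clients was not tested.

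Of 18 genes that watch over ribosomes or answer to free ribosomal proteins, 5 fell and 6 rose, beside 20.5% lower and 21.3% higher of all genes tested. RNF10, a ubiquitin ligase of small subunit proteins, went from 93.2, 93.6 and 91.1 CPM to 34.5, 32.2 and 34.4 CPM (log2 fold change −1.46, SE 0.0545, adjusted p = 6.63e-09). CDKN1A, an inhibitor that stops the cell cycle, was at 0.99 (adjusted p = 2.40e-06).

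**Figure D4:**
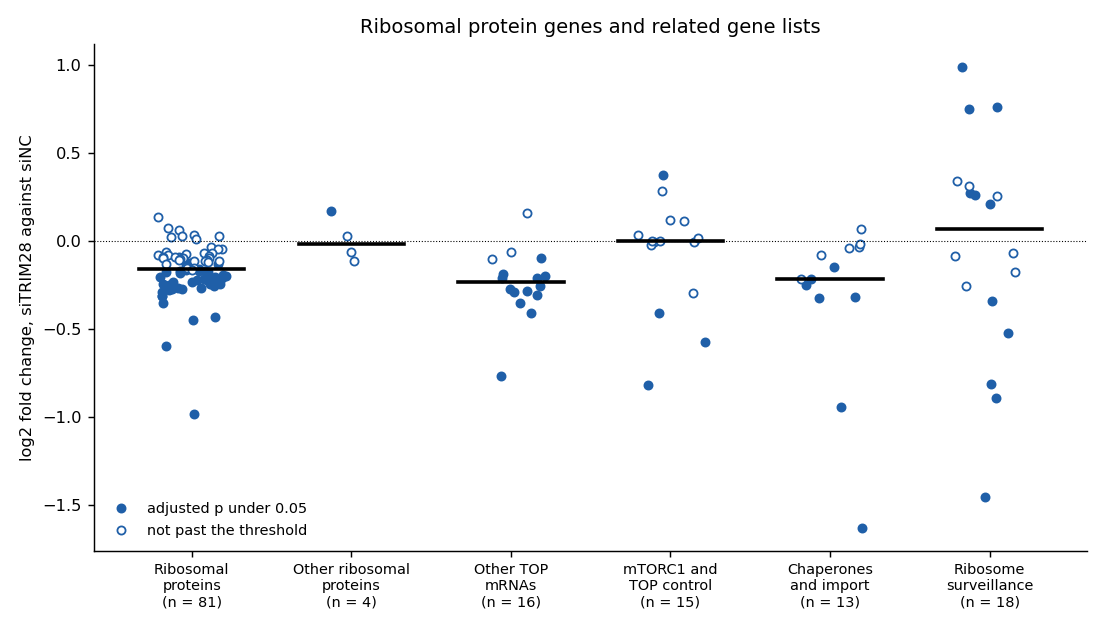
Fitted log2 fold change (y axis, siTRIM28 against siNC) of the 81 ribosomal protein genes and of 5 related gene lists (x axis), with 1 point per gene, filled where the adjusted p was under 0.05, and a black bar at the median. The medians are −0.16 for the ribosomal protein genes and −0.24 for the other TOP mRNAs, and the surveillance genes spread to both sides of 0.

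Near copies and overlapping rows bear on every count given here, because it is not stated whether a read could be counted on more than 1 row or whether strand was used. Rows named as pseudogenes of a member numbered 1660, of which 277 were tested, 18 fell and 4 rose, beside 20.5% lower and 21.3% higher of all genes tested. The median fold change of the 277 was −0.16, as was that of the members. All 1660 rows held 0.248%, 0.238% and 0.247% of all counts in siNC and 0.243%, 0.221% and 0.228% in siTRIM28, far less than the members. For 8 members the pseudogene rows summed to over 10% of the member's own count, led by RPS26 (24%), RPL41 (20.4%) and RPL29 (15.7%), and for RPL10 they came to 5.41%. Another row with a mean of at least 10 counts overlapped the span of 44 members, for 18 of them on the same strand. RPL17 and the readthrough row RPL17-C18orf32 on its strand held nearly the same counts in every library, 10427 and 10248 in siNC replicate 1, and RPLP2 shared 318 bases with a row on the opposite strand that held 78.1% as many counts. DNASE1L1 on the strand opposite RPL10 held 25.5% as many counts as RPL10 and had a log2 fold change of −0.20, and PTPN11 opposite RPL6 held 16.9% as many and had −0.51. ATG10 opposite RPS23 held 44.1% as many and had −0.38, and RPL26L1-AS1 opposite RPL26L1 held 40.2% as many and had 0.26. Rows on the same strand held 96.4% as many counts as RPL22, 87.7% as many as RPL26 and 102% as many as RPL36A. No row with a mean of at least 10 counts overlapped RPL23. The part of these rows in the members' values was not tested.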

How the data were processed

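RNA-seq of 6 T24 cultures was used, 3 siNC and 3 siTRIM28, grouped by the labels. Per the labels and the submitters' processing notes, poly(A) RNA was made into stranded libraries, reads were trimmed with fastp 0.23.1, aligned to GRCh38 with STAR 2.7.6a and counted per gene with featureCounts. The authors deposited raw read counts; annotation release, strand setting and treatment of multi-mapping reads or molecular identifiers are not given in the sources used here. An RPKM table deposited for the authors' differentially expressed genes was not used.

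The 18474 genes that reached 10 counts in 3 or more libraries were tested with edgeR 4.0.16 (TMM, glmQLFit, glmQLFTest, R 4.3.3). SE is the size of the log2 fold change over the square root of F. In simulated data 142 of 200 genes changed by 0.8 were recovered among 18193, and 124 of the 128 with a mean of at least 50 counts. The median member moved by −0.16, so this recovery does not describe changes of that size. P-values measure the spread between these cultures only.

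The members, lists and tests were chosen with earlier results of these data known. Named genes are the 8 lowest and 8 highest members, the paralogs and parents, the 3 highest and lowest levels per length, those nearest the count filter, TRIM28, up to 3 called genes with the largest change per list, and RPL5, RPL11, RPLP0, RPLP1, RPLP2, RPL12, RPS6, RPS27A and RPSA. Some genes of the rule and lists are not reported here by name. Others, as RPS3, RPL4, RPL38, RPL36A, EEF1A1 and the overlapping rows, were named after their values were seen. Same-numbered libraries did not deviate together (correlations 0.05, −0.01 and 0.04). Alternatives were DESeq2 1.42.0, limma-voom 3.58.1, scaling by RLE, by the upper quartile or by totals, other filters, a replicate block, leaving out each library, summing close libraries, and a threshold of 0.01.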

Additional observations from a re-analysis of the deposited data

How the results depend on the processing

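TRIM28 stayed called in every alternative, with log2 fold changes of −3.58 to −3.49, and no member was called higher in any of them. The count of members that fell was 37 with upper-quartile, 40 with total-count and 47 with RLE scaling, 38 with DESeq2, 47 with limma-voom, 56 with no count filter, 46 with at least 10 counts in every library and 33 at an adjusted p under 0.01. It was 29 with the close libraries summed. It was 35 to 76 when a library was left out, and 76 came without siTRIM28 replicate 1 alone, the other 5 counts reaching at most 40. The replicate numbers do not pair the cultures, and with a replicate block the count was 48. The block also gave RPS25 as −0.013, of the other sign, and no other named member changed its call. Without siNC replicate 3 and siTRIM28 replicate 1 together 75 fell, and the median was −0.22. The median of the members was −0.21 to −0.12 in all other alternatives. Of 33 members followed singly through the alternatives, 15 kept both sign and call in all of them. Members with values near 0 changed sign, and the cause was not tested. When a library was left out RPS25 ranged from −0.19 to 0.11, RPL31 from −0.16 to 0.10, RPL37A from −0.18 to 0.11, RPL38 from −0.16 to 0.11, RPL36 from −0.060 to 0.085, RPL39 from −0.10 to 0.14 and RPS28 from −0.025 to 0.15. Without both libraries named above they were −0.21, −0.22, −0.22, −0.19, −0.082, −0.12 and −0.10 in this order. RPS25 was −0.0073 with limma-voom, and RPL7 was 0.0070 with the close libraries summed. The ratio of RPL22L1 to RPL22 ranged from −0.073 to 0.060 when a library was left out, that of RPS27L to RPS27 from −0.064 to 0.17 and that of RPL7L1 to RPL7 from −0.056 to 0.13, the last being −0.052 with the close libraries summed. With 3 libraries a group, differences of the size of most standard errors here, a median of 0.05, were not detectable.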

Other observations

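Among the 277 pseudogene rows tested, a row chosen after the values were seen went against the parent. RPSAP52, named as a pseudogene of RPSA, had 305, 298 and 262 counts in siNC and 557, 427 and 464 in siTRIM28 (log2 fold change 0.85, adjusted p = 1.62e-06), while RPSA was at −0.32. RPL23AP7 fell, with 592, 604 and 491 counts in siNC and 462, 372 and 342 in siTRIM28 (log2 fold change −0.42, adjusted p = 0.000714). RPL7P1, a copy of RPL7, had 2716 counts in siTRIM28 replicate 1 against 1149 and 1186 in replicates 2 and 3 and 1412 to 1875 in siNC.

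RN7SL1, an RNA of the signal recognition particle whose row overlaps RPS29 on the opposite strand, had 2066 counts in siNC replicate 3 against 36 and 35 in siNC replicates 1 and 2 and 25 to 53 in siTRIM28. RPS29 was at 59.7, 60.1 and 59.5 CPM in siNC.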
